A study of Mus musculus with 6 samples.

Results

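A stretch of mouse chromosome 19 was described gene by gene in RNA of kidney glomeruli. It holds the genes that start between 42 and 47 Mb in the mm10 build, with Ndufb8 left out. Of the 94 rows that start there, 66 other than Ndufb8 had a mean of at least 10 normalised counts over the 6 libraries, out of 13946 genes at that level in the whole table. The stretch was selected on the normalised counts of KO against WT, because genes higher in KO lie close together in it. Every value of that difference below is therefore a description.

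Glomeruli of 3 KO and 3 WT mice, all males of 9 weeks with mild proteinuria and of mixed C57BL/6 strain, were isolated with magnetic beads and their RNA was sequenced. KO mice carried 2 floxed copies of Parva (Parva-fl/fl) and a Cre under hNPHS2, the human promoter of the podocyte gene podocin. WT mice carried Parva-fl/fl without Cre, so the floxed alleles are common to both groups. Cre acts in podocytes, and the libraries also hold endothelial and mesangial cells, in which the gene stays intact. Whether the groups were littermates is not given in the sources used here. Parva encodes alpha-parvin, which joins integrin-linked kinase to actin. Its normalised counts were 6585, 7520 and 7890 in WT and 2288, 2338 and 1942 in KO, so every KO library was below every WT library for the targeted gene.

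The genes of this stretch do not form a pathway. They are neighbours, and their products work in mitochondria, membranes, the nucleus and the secretory route. Several are known for high expression in liver and in the proximal tubule, the nephron segment that takes up filtered solutes and carries much of the oxidative and detoxifying metabolism of the kidney. Isolated glomeruli can carry attached tubule fragments, and the level of tubule markers in each library is given below beside these members.

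The promoters of 3 members with a higher level in KO are shown, chosen for their places: Hoga1 at the lower end of the stretch, Cpn1 in its middle and Sfxn2 near its upper end. Larger differences than that of Sfxn2 were found in other members. Each runs from 250 bases before a RefSeq transcript start to 50 bases after it (GRCm38.p6). Capitals mark GTTAAT on either strand, letters found in binding sites of the tubule and liver factor HNF1. The windows are chr19:42045620-42045919 on the plus strand, chr19:43986471-43986770 on the minus strand and chr19:46573115-46573414 on the plus strand, in that order.
Hoga1: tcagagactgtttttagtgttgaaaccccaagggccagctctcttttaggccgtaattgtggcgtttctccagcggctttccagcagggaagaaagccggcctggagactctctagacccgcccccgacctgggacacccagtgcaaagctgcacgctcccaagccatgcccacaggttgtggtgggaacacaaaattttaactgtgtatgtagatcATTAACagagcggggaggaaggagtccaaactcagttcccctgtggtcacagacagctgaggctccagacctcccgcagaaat
Cpn1: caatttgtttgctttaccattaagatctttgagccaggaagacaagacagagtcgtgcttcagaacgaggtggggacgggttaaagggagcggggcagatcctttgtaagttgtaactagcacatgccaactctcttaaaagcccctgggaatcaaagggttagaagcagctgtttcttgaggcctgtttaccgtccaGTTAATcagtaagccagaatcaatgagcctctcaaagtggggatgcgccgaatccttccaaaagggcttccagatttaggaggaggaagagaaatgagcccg
Sfxn2: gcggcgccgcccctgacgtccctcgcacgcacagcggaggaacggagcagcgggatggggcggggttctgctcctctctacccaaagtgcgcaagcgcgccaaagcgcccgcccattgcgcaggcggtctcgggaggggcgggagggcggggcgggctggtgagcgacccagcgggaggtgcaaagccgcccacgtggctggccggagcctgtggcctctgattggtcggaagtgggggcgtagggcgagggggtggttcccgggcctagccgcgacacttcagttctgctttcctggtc
The match lay 33 bases before the start in Hoga1 and 52 bases before it in Cpn1, and the Sfxn2 window held no match. Over the 12 members at least 2-fold higher in KO, of which 11 had an entry, 3 of 15 promoters held it, those of Hoga1, Cpn1 and Gm10768. The table of promoters had entries for 58 of the 66 members. GTTAAT or its reverse complement was in 4 of 80 member promoters (5.0%) and in 7.10% of all 32851 promoters. AAGGTCA, letters bound by several nuclear receptors, was in 3 member promoters (3.75%, against 4.72% of all), and AAAGTCC, part of the site of HNF4, was in 4 (5.0%, against 4.21%). Of the 15 promoters of the members at least 2-fold higher, 1 held AAGGTCA, that of Abcc2, and 0 held AAAGTCC. Both strands were searched, and none of the 3 motifs contains another. A match describes letters and does not show a bound site.

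Glomerular markers were abundant in all libraries, but the podocyte, endothelial and mesangial means were lower in every KO library than in every WT library. The proximal tubule mean was higher in every KO library. The mean log2 level of 18 podocyte markers was 13.02 to 13.29 in WT and 12.46 to 12.88 in KO, that of 17 endothelial markers 11.45 to 11.73 and 10.82 to 11.14, and that of 11 mesangial markers 11.83 to 12.16 and 11.21 to 11.45. The mean of 24 proximal tubule markers, of which 0 lie on chromosome 19, was 12.21, 11.08 and 11.08 for WT replicates 1 to 3 (written WT-1 and so on) and 12.60, 13.13 and 12.99 for those of KO. WT-1 was thus closest to KO-1, and each of the 24 markers had its top WT value there. The 18 distal nephron markers ran from 8.12 to 9.75 in WT, also highest in WT-1, and from 9.40 to 10.51 in KO. The 5 markers of parietal epithelium, which lines the capsule around the glomerulus, ran from 6.73 to 7.75 in WT and from 8.28 to 8.62 in KO. The 10 of 11 immune markers that passed the minimum ran from 5.28 to 6.28 in WT and from 5.61 to 7.42 in KO, and 0 markers of these lists had a mean of 0. In bulk RNA, more cells of a type and more RNA per cell cannot be told apart. Whole reads numbered 11886828 to 20552984 per library. In a set of 10 genes, none of them a member, a single library exceeded every other library at least 30 times. Summed over the 10 genes, they took 0.239% to 32.4% of the reads, depending on the library.

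Most members differed little between the groups, and 12 of 66 were at least 2-fold higher in KO. These 12, in order along the chromosome, are Hoga1, Pyroxd2, Cnnm1, Abcc2, the predicted gene Gm10768, Cpn1, Cyp2c23, Erlin1, Pax2, Sema4g, Sfxn2 and Cnnm2. Their log2 fold changes on the scale of log2(normalised count + 1) reached 3.24, and 0 members were at -1 or less. A log2 fold change of at least 1 was present in 10.5% of all genes tested, and one of -1 or less in 1.58%. Over other 5 Mb windows of chromosome 19 the share at 1 or more ran from 0% to 31.25%. It was 31.25% from 12 to 17 Mb, 23.5% from 17 to 22 Mb and 23.1% from 27 to 32 Mb, against 18.2% of the members. In all 12, the lowest KO library lay above the highest WT library. A log2 fold change within 0.5 of zero was found in 47 members, and in 9506 of all 13946 genes tested, a similar share.

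Across all 66 members, 27 had every KO library above every WT library, against 23.2% of all genes tested. In 9 members every KO library was below every WT library, against 21.9% of all genes. The groups overlapped in 30 members and in 7653 of all 13946 genes tested. In limma with Benjamini-Hochberg adjustment over all genes, 15 members passed an adjusted p of 0.05 as higher (13.5% of all genes did) and 2 as lower (8.58% of all genes). The median log2 fold change was 0.14 over the members and -0.01 over all genes tested. Since this contrast chose the stretch, nothing is read from these counts. The 15 calls became 1 without WT-2 and 0 without WT-3, without KO-2 or without KO-3. In these limma fits 22, 22, 23 and 26 members had an unadjusted p below 0.05. Of all 13946 genes tested, 3939, 4048, 4021 and 4924 did. The 2 lower calls became 0 in each of these fits and 5 without WT-1.

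**Figure D1:**
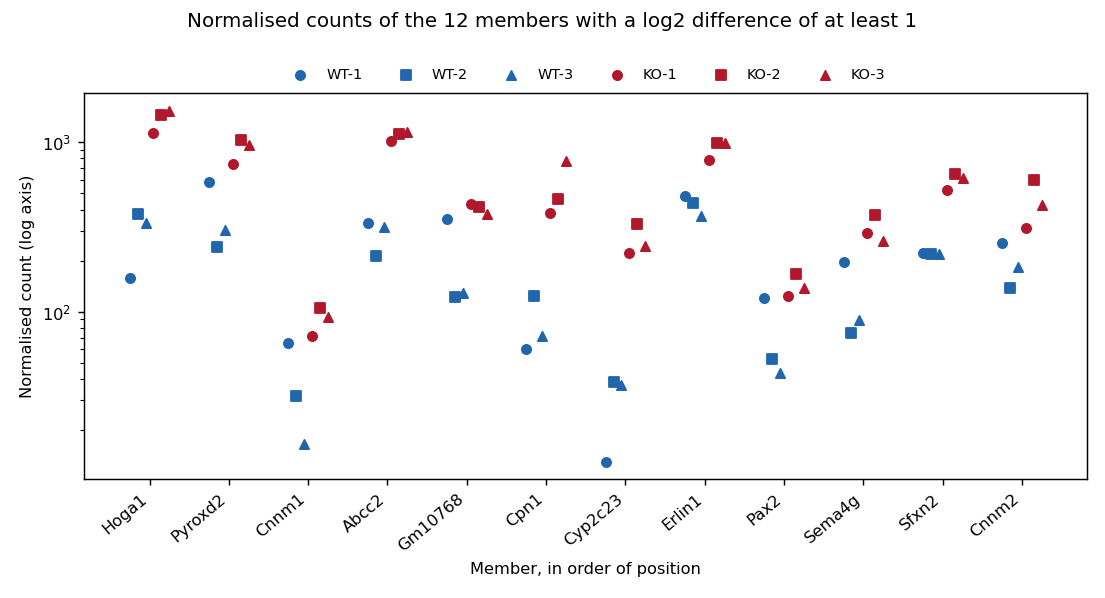
Normalised counts (log axis) of the 12 members with a log2 difference of at least 1, in order of position, 1 point per library (blue WT, red KO). In each member all 3 KO points lie above all 3 WT points, by a small margin for Cnnm1, Gm10768 and Pax2 and a wide one for Hoga1, Abcc2, Cpn1, Cyp2c23 and Sfxn2.

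In 5 of the 12, the lowest KO library was at least 2.35 times the highest WT library, against at most 1.62 times in the other 7. Cyp2c23 encodes a cytochrome P450 of arachidonate metabolism (NCBI Gene 226143, chromosome 19, 44005022 to 44029256). Its normalised counts were 13.0, 38.6 and 37.0 in WT and 221, 327 and 244 in KO, in the order of the replicate numbers here and below. The lowest KO library was 5.72 times the highest WT library, and WT-1, with 12 reads, was the lowest of all. The mean was 29.6 ± 14.3 in WT and 264 ± 55.9 in KO (SD, n = 3), and the log2 fold change was 3.24 (SE 0.41). Members of the Cyp2c family resemble one another, and reads may be shared among them.

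Cpn1, the catalytic subunit of plasma carboxypeptidase N (NCBI Gene 93721, 43956307 to 43986551), ends 18470 bases below Cyp2c23. It stood at 59.7, 124 and 71.6 in WT and at 382, 459 and 769 in KO. The KO libraries were uneven, with KO-3 highest, but all were above WT. The mean was 85.0 ± 34 in WT and 537 ± 205 in KO (SD, n = 3), and the log2 fold change was 2.65 (SE 0.34).

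Hoga1 encodes a mitochondrial aldolase of hydroxyproline breakdown (NCBI Gene 67432, 42045559 to 42071689) and is the first member from the lower end. It stood at 158, 377 and 331 in WT and at 1132, 1454 and 1526 in KO. WT-1 was again the lowest library, and the lowest KO library was 3.00 times the highest WT library. The mean was 288 ± 116 in WT and 1371 ± 210 in KO (SD, n = 3), and the log2 fold change was 2.33 (SE 0.32).

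Abcc2, an export pump for conjugated organic anions in the apical membrane of tubule cells and hepatocytes (NCBI Gene 12780, 43782308 to 43838332), was counted at 332, 214 and 317 in WT, and at 1014, 1111 and 1146 in KO. The KO libraries were close together, and the lowest was 3.05 times the highest WT library. Its mean was 288 ± 64.5 in WT and 1091 ± 68.3 in KO (SD, n = 3), and the log2 fold change was 1.94 (SE 0.17).

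Sfxn2, a sideroflexin of the inner mitochondrial membrane (NCBI Gene 94279, 46573325 to 46596901), lay 2.57 Mb further up than Cyp2c23. The WT libraries were nearly identical, at 223, 218 and 217, and the KO libraries stood at 524, 652 and 615. The means were 219 ± 3.00 and 597 ± 66 (SD, n = 3), and the log2 fold change was 1.43 (SE 0.11).

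In the other 7 members with a log2 fold change of at least 1, WT-1 was the highest WT library, as it was for the tubule markers. Pyroxd2, a mitochondrial oxidoreductase, stood at 584, 240 and 305 in WT and at 747, 1028 and 962 in KO. Sema4g, a semaphorin, stood at 197, 74.2 and 88.9 in WT and at 292, 372 and 261 in KO. Pax2, a transcription factor of kidney epithelium that is also in the list of parietal markers, whose 5 genes all had every KO library above every WT library, stood at 121, 52.5 and 43.6 in WT and at 123, 166 and 138 in KO. In each of these 3, WT-1 was nearer to the lowest KO library than to the other WT libraries.

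Cnnm1 and Cnnm2 encode paralogues linked to magnesium handling and lie at different places in the stretch. Cnnm1 stood at 65.2, 31.7 and 16.5 in WT, against 71.8, 105 and 93.0 in KO. Cnnm2 stood at 253, 139 and 184 in WT, against 310, 593 and 423 in KO. WT-1 was the highest WT library for both, and Cnnm2 was uneven in KO. Erlin1, an endoplasmic reticulum protein that begins 5686 bases above the end of Cyp2c23, stood at 483, 435 and 364 in WT and at 783, 993 and 992 in KO. Its WT libraries differed little, with WT-1 above the mean of the others by 0.28 on the log2 scale, less than for Abcc2. Its lowest KO library was 1.62 times the highest WT library. Gm10768, named after its values were seen because it begins 470 bases beyond the end of Abcc2, stood at 353, 122 and 128 in WT and at 433, 414 and 374 in KO. Abcc2 itself was at 332 in WT-1 and 317 in WT-3, so the neighbours had different patterns among the WT libraries.

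WT-1 therefore divided the 12. It was the lowest WT library for Hoga1, Cpn1 and Cyp2c23 and the highest for the other 9. Over all genes tested it was the lowest in 38.2% and the highest in 37.1%. For Sfxn2 and Abcc2 it was the highest by 0.03 and 0.35 on the log2 scale, measured against the mean of WT-2 and WT-3. The proximal tubule mean of WT-1 was above those libraries by more than 1 on that scale. Among all 1468 genes with a log2 fold change of at least 1, WT-1 was the highest WT library in 89.2%.

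**Figure D2:**
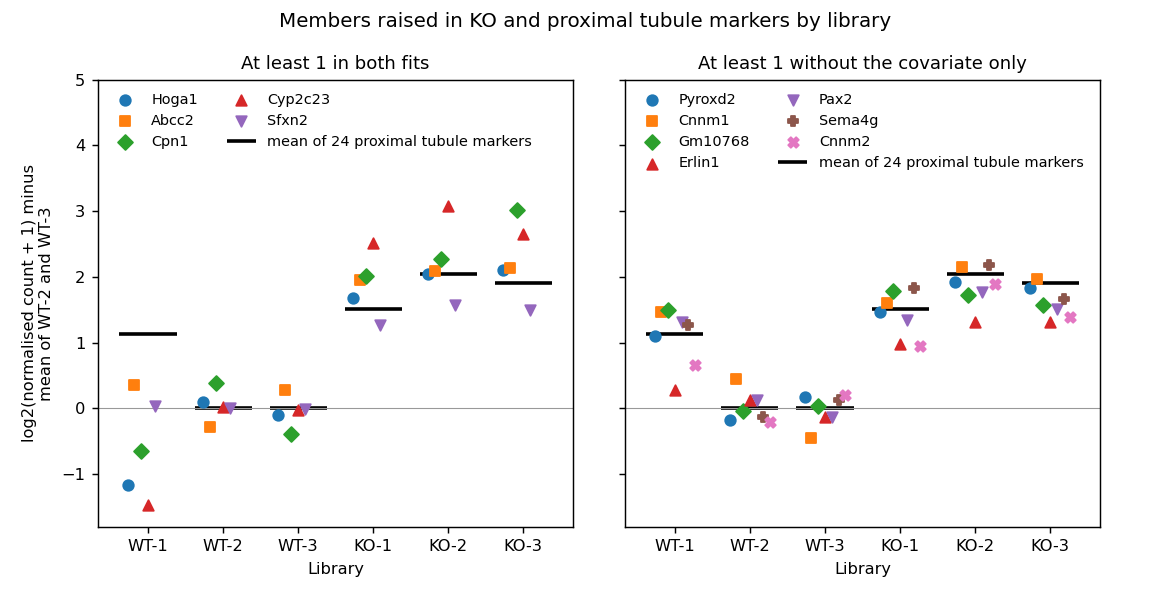
log2(normalised count + 1) of the 12 members in each library, as the difference from the mean of WT-2 and WT-3, in 2 panels split by their value with the tubule covariate. Black bars are the mean of 24 proximal tubule markers on the same scale. In WT-1, Hoga1, Cpn1 and Cyp2c23 lie below 0 while the black bar lies above 1; the points of the right panel lie above 0 there.

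KO-1 and WT-1 are the libraries of the 2 groups with the closest tubule marker levels, 12.60 and 12.21. The ratio of KO-1 to WT-1, on normalised count + 1, was 0.926 to 1.63 over the 24 proximal tubule markers. It was at least 2 in 5 of 66 members (7.58%), against 2.59% of all genes tested. Other 5 Mb windows of chromosome 19 had higher shares, 3 of 19 genes (15.8%) from 22 to 27 Mb and 4 of 31 (12.9%) from 32 to 37 Mb. The 5 members with a ratio of at least 2 were Cyp2c23 (15.8), Hoga1 (7.15), Cpn1 (6.30), Abcc2 (3.05) and Sfxn2 (2.35). In the other 7 of the 12 it was 1.02 to 1.62, lowest in Pax2 and highest in Erlin1. All 5 also passed the adjusted p as higher, and 0.997% of all genes tested met both criteria. For the 5, a ratio above 2 already followed from the gap between their lowest KO and highest WT library. This is a pair of single libraries, with no replicate check.

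The fit with the proximal tubule mean as a covariate set the same 5 members apart. It uses the same libraries and is no independent check of that division. The fitted difference at equal tubule level was at least 1 for 5 members, against 2.87% of all genes: 4.63 (SE 0.60) for Cyp2c23, 3.42 (SE 0.45) for Hoga1, 3.15 (SE 0.66) for Cpn1, 1.497 (SE 0.30) for Abcc2 and 1.27 (SE 0.22) for Sfxn2. The windows from 22 to 27 Mb and from 32 to 37 Mb had 3 of 19 genes (15.8%) and 3 of 31 (9.68%) at that level. Of the 10 immune markers, 5 were also at 1 or more in this fit. The other 7 of the 12 members were at -0.49 to 0.65, with Pyroxd2 at -0.032, Sema4g at 0.00 and Erlin1 at 0.65 (SE 0.22). The median over all members was 0.012. The tubule means of the groups do not overlap, so these values extend beyond the levels that the groups share and lean on WT-1 and KO-1. In limma 0 of the 66 members, and 0 genes in all, passed an adjusted p of 0.05 in this fit, with 8 members and 398 genes (2.85%) at an unadjusted p below 0.05. The part of other differences between the mice in these values was not tested.

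**Figure D3:**
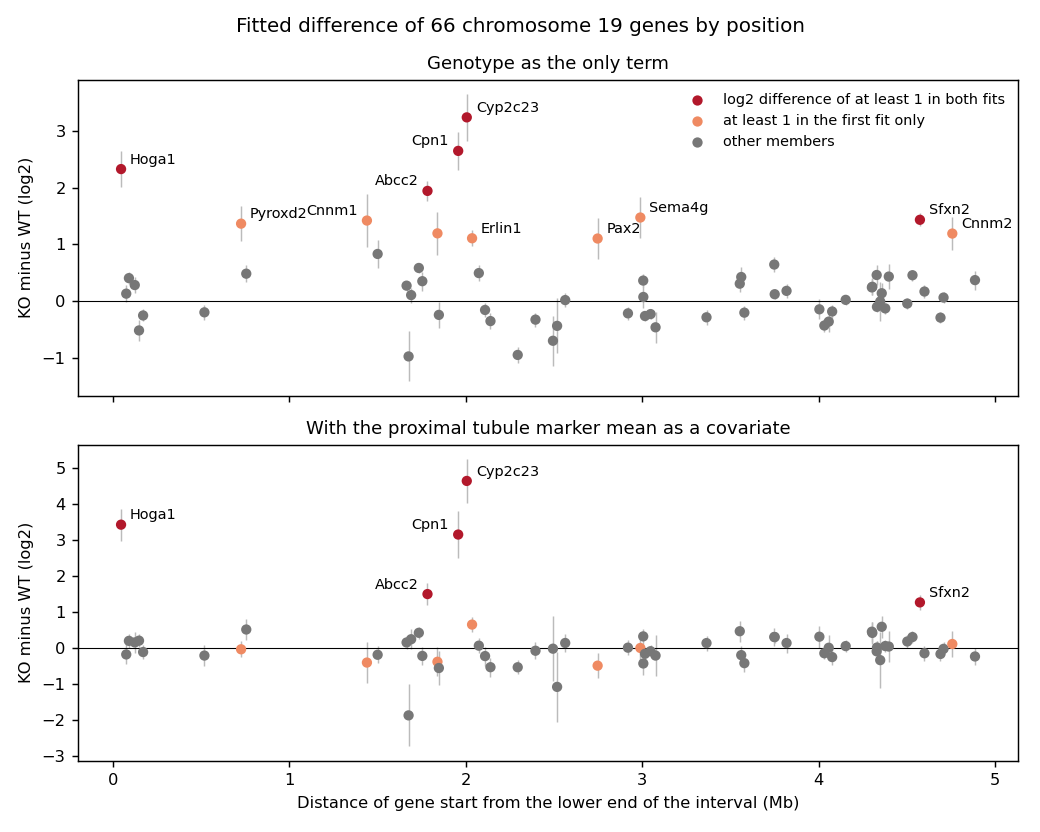
Fitted KO minus WT difference (log2, bars are SE) of the 66 members against the distance of the gene start from the lower end of the stretch (Mb), without (top) and with (bottom) the tubule covariate. Red points, at least 1 in both panels, are Hoga1, Abcc2, Cpn1, Cyp2c23 and Sfxn2; the orange points lie between -0.49 and 0.65 in the lower panel.

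Along the chromosome the 5 were not contiguous. Between Hoga1 and Abcc2 lay 15 members, of which 2 had a log2 fold change of at least 1 and whose median was 0.28. Between Abcc2 and Cpn1 lay 2 members, Gm10768 and Dnmbp, a Cdc42 exchange factor at 128, 88.1 and 114 in WT and at 105, 105 and 70.3 in KO, with overlapping groups. Cpn1 and Cyp2c23 were adjacent. Between Cyp2c23 and Sfxn2 lay 39 members with a median of -0.01, of which 3 had a log2 fold change of at least 1. By megabase, the median log2 fold change was 0.28 over 9 members from 42 to 43 Mb, 0.59 over 11 from 43 to 44 Mb, -0.15 over 13 from 44 to 45 Mb, 0.10 over 12 from 45 to 46 Mb and 0.06 over 21 from 46 to 47 Mb. With the tubule covariate the bin from 43 to 44 Mb was at -0.18.

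At the lower end, Ubtd1 and Mms19, just outside, had log2 fold changes of -0.07 and -0.09, and Hoga1 and Morn4, just inside, of 2.33 and 0.13. At the upper end, Cnnm2 and Nt5c2 inside were at 1.19 and 0.37 and Pcgf6 and Taf5 outside at 0.68 and -0.39. Pcgf6, a polycomb subunit, stood at 70.6, 83.1 and 72.4 in WT and at 116, 123 and 125 in KO, without overlap. The groups overlapped for Taf5. From 47 to 52 Mb, 0 of 16 genes had a log2 fold change of at least 1, and their median was -0.26. In 7 of these 16 every KO library was below every WT library. In windows of the same 5 Mb over the rest of chromosome 19, the share of genes passing the adjusted p as higher ran from 10.3% to 26.9%, and it was 22.7% in the stretch described here. It was highest from 27 to 32 Mb.

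The members were also sorted by function into short lists, each gene in 1 list at most, beside 11 in none. Over all genes tested, 13.5% passed as higher, 8.58% as lower, and 23.2% had every KO library above every WT library, and the counts below are descriptions. In the list of 7 mitochondrial genes, 3 passed as higher and 0 as lower, with a median log2 fold change of 0.36. Hoga1 and the carrier Slc25a28, whose products also work in mitochondria, are not in this list. Sfxn2 and Pyroxd2 are described above. Cox15, which makes heme A for cytochrome c oxidase, stood at 505, 463 and 486 in WT and at 687, 769 and 728 in KO. Its groups were well apart, at a log2 fold change of 0.59 (SE 0.09), and the value with the tubule covariate was 0.42 (SE 0.16). Mrpl43, of the mitochondrial ribosome, was at 0.36. Sfxn3, the second sideroflexin of the stretch, went the other way, at 512, 559 and 542 in WT and 470, 448 and 458 in KO, without overlap and at a log2 fold change of -0.23. Pprc1, a coactivator of mitochondrial genes, had the lowest value of this list, -0.36, with overlapping groups. Mrpl43 overlaps Twnk on the other strand, and their reads may not be separable.

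In the list of 8 metabolic enzymes, 3 passed as higher (Cpn1, Got1 and Pi4k2a) and 0 as lower, with a median of 0.36. The enzymes Hoga1 and Cyp2c23, both higher, are in no list and not in this count. Got1, cytosolic aspartate aminotransferase, stood at 943, 528 and 555 in WT and at 1052, 1447 and 1029 in KO. It was high in WT-1, its log2 fold change was 0.83 (SE 0.24), and with the tubule covariate it was -0.18. Pi4k2a, a phosphatidylinositol kinase, had means of 618 ± 50.8 and 820 ± 70.9 (SD, n = 3). Hif1an, the hydroxylase that restrains hypoxia-inducible factor, had the lowest value of the list, 0.02, at means of 615 ± 51.3 and 626 ± 80.4 (SD, n = 3). As3mt, an arsenic methyltransferase, was at 0.06 and Nt5c2, a nucleotidase, at 0.37.

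All 4 genes of the transporter list had every KO library above every WT library, and 2 of them, Abcc2 and Cnnm2, passed. The lowest was Slc25a28, a mitochondrial iron carrier, with 492, 485 and 461 in WT and 555, 619 and 566 in KO, a log2 fold change of 0.27. Scd1 and Scd2 encode fatty acid desaturases. Scd2 stood at 4597, 5282 and 5617 in WT, and at 3153, 2538 and 2380 in KO, a log2 fold change of -0.95 (SE 0.14), and it was 1 of the 2 members that passed as lower. Its paralogue Scd1 stood at 503, 609 and 584 in WT and at 460, 499 and 396 in KO, without overlap, and did not pass (-0.32). Per kilobase of exon, Scd2 was at 719 and Scd1 at 104 normalised counts over the 6 libraries. With the tubule covariate they were at -0.53 (SE 0.20) and -0.07 (SE 0.23). Scd4 had a mean of 7.46 and Scd3 of 1.06, under the minimum, and copies of this family can share reads.

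**Figure D4:**
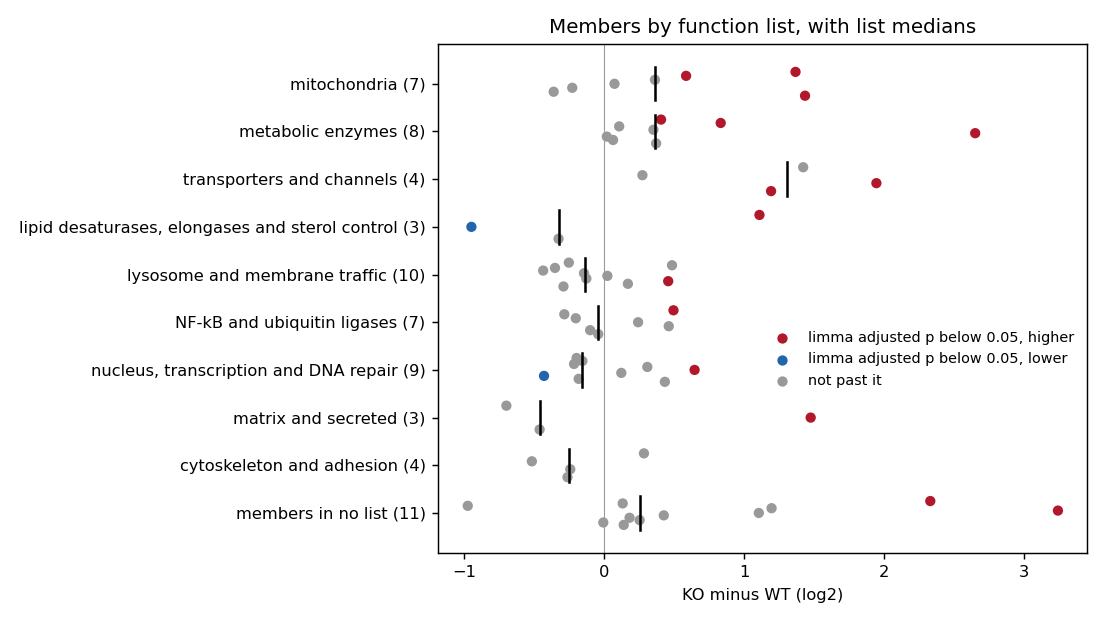
KO minus WT difference (log2) of each member by function list, with the number of members in brackets and a black line at the list median; red and blue points passed the limma adjusted p of 0.05 as higher and lower. Transporters have the highest median of the lists, and the single points beyond 2 are Cpn1, Hoga1 and Cyp2c23.

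The remaining lists of named functions had medians below 0. Of 10 members of lysosome and membrane traffic, Arl3 passed as higher, with means of 623 ± 18.0 and 859 ± 74.4 (SD, n = 3). This small GTPase of the cilium is the neighbour of Sfxn2 on its lower side. Sec31b had the lowest value (-0.43) with overlapping groups. Hps1 and Hps6, of complexes that build lysosome-related organelles, were at 0.49 and -0.14. Hps1 stood at 144, 153 and 135 in WT and at 201, 176 and 232 in KO, without overlap, and Hps6 overlapped. Actr1a, an actin-related subunit of dynactin, was at -0.13.

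Of 7 members of NF-kB signalling and ubiquitin ligases, Chuk, the kinase IKK-alpha, passed as higher, at means of 880 ± 98.0 and 1246 ± 199 (SD, n = 3), and was at 0.07 with the tubule covariate. Btrc, an F-box protein, was lowest at -0.28, and Trim8 was at -0.04. Of 9 nuclear members, Npm3, a nucleolar chaperone, passed as higher (0.65) and Ldb1 as lower. Ldb1, a cofactor of LIM-homeodomain factors, stood at 1850, 2151 and 2040 in WT and at 1664, 1476 and 1356 in KO, a log2 fold change of -0.43 (SE 0.11). Podocyte, endothelial and mesangial markers were lower in the same KO libraries, and their part in the values of Ldb1 and Scd2 was not tested.

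The list named matrix and secreted held 3 members, and the semaphorin Sema4g, placed there by list only, passed. Wnt8b had the lowest value of it, -0.70 at 22.8, 27.7 and 28.8 in WT and 26.6, 18.4 and 7.94 in KO, with overlap. None of 4 cytoskeleton and adhesion members passed. Marveld1, a membrane protein with the highest level per kilobase of exon of the 62 members with an exon length (1107 against a median of 97.3), stood at 4357, 6050 and 6459 in WT and at 4586, 3642 and 3493 in KO. The groups overlapped through WT-1 and KO-1, and the log2 fold change was -0.51 (SE 0.18). Avpi1, the highest of the list, was at 0.28. The lowest log2 fold change of any member was that of the long noncoding BC037704, -0.97 (SE 0.44), at 43.5, 28.7 and 23.9 in WT and 11.5, 10.8 and 28.3 in KO, with overlap, and it was -1.86 with the tubule covariate.

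A further 27 rows of the stretch were under the mean of 10. Of these, 12 had no read in any library, among them Fgf8, Elovl3, Tlx1, Lbx1 and Pitx3. The row nearest below the minimum was Loxl4, with a mean of 9.35, and the nearest above it was a noncoding Rik gene with a level of 12.6 in both groups. Of the 66 members, 28 overlap another annotated gene on either strand.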

How the data were processed

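Directional libraries of glomerular RNA were made, per the labels' protocols. The submitters' processing notes list HISAT2 2.1 and featureCounts 1.6.4, besides bcl2fastq 2.19 and cutadapt 1.16.5, name mm10 as the build and give DESeq2 as 2.11.40.6. For the annotation and the strand setting, the sources used here give nothing. The deposited signal is a normalised count per gene and library. All values in each library (100%) were whole multiples of 1 step, as reads divided by a single factor per library would be. The tolerance was 0.01 of a step and widened in proportion at high counts, so the highest values were checked less strictly. Whole reads were recovered in this way, and edgeR and DESeq2 on these called 2841 and 3810 genes.

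Of the identifiers, 25275 were named and placed by RefSeq (GRCm38.p6, the sequence of mm10) and 17 by GENCODE M21, and 1887 stayed unnamed in the tests. limma 3.58.1 in R 4.3.3 with a variance trend was fitted to log2(normalised count + 1) of 13946 genes with a mean of at least 10, genotype as the only term. edgeR 4.0.16 and DESeq2 1.42.0 were alternatives, with a replicate block, other pseudocounts, scalings, filters and priors, the tubule covariate and leaving out each library. Steps were tested on simulated data. The members, lists and tests were chosen with earlier results of these data known. Named are Sfxn2, the genes at both ends, members beyond 0.8 (log2), the most abundant and the extreme members of each list, and paralogues; predicted genes were to be counted only, and Gm10768, Dnmbp, Cox15, Arl3, Pi4k2a, Twnk and As3mt were added after their values were seen. Libraries of a group differed by more than counting noise (lowest chi-square over its degrees of freedom 23.4). The series' design text counts 3 mice per group, and p-values measure the spread between these libraries.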

Additional observations from a re-analysis of the deposited data

How the results depend on the processing

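The median log2 fold change of the members stayed within 0.08 to 0.20 in every alternative other than the tubule covariate, where it was 0.012. The 15 members called higher became 0 with the replicate block, without the variance trend and with the tubule covariate, and 0 to 20 when a library was left out. The 2 called lower became 0 in the same 3 fits and 0 to 5 when a library was left out. Over all genes, 3085 calls became 0 with the replicate block (4284 at an unadjusted p below 0.05), 1 without the variance trend, 0 with the tubule covariate and 0 to 4294 when a library was left out; edgeR called 2841 and DESeq2 3810. Deviations from the group means showed no pairing by replicate number, as same-numbered ones correlated at -0.23, -0.19 and -0.01. Whether same-numbered libraries shared a litter or a preparation day was not tested. The 27 members with KO above WT were 27 to 32 and the 9 below 11 to 15 without a library, where fewer libraries can overlap less. With the tubule covariate the bin from 43 to 44 Mb went from 0.59 to -0.18, and 21 of 66 members changed sign. Of these, 2 were called in the fit without it, Pyroxd2 and Got1, at -0.032 and -0.18 with it, and the uncalled included Cnnm1 (-0.40), Pax2 (-0.49) and Gm10768 (-0.38). Of 643 values of the 34 named genes under alternatives, 614 moved by less than 1 SD, 27 moved further and 2 reversed. The replicate block, the variance settings and the filters cannot move a fitted difference, so many of the 614 were fixed in advance. Apart from Sfxn3 with upper quartile scaling, all values that moved or reversed came from the tubule covariate, which moved most of the named genes. The fitted differences of Hoga1, Abcc2, Cpn1, Cyp2c23 and Sfxn2 were above 1 in each fit run. These 5 were grouped by a value of at least 1 with the tubule covariate, so for that fit the outcome was fixed by the grouping. The cause of the lost calls was not tested. Low members such as Cyp2c23 in WT-1 rest on 12 reads.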
